A study of Mus musculus with 6 samples.

Results

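Genes that mouse nomenclature numbered as Gpr, for G protein-coupled receptor, before a ligand or a family name was assigned to them were followed in lung endothelial cells (EC) of infant and young adult mice. Every symbol made of Gpr, a number and at most 1 closing letter was taken, and for each symbol the RefSeq transcript with the highest mean level over the libraries was kept, so the choice used no difference between the ages. This gave 20 of the 12623 genes of the deposited table, carried by 37 of its 17241 transcript rows. Each library held RNA of EC sorted from lungs of C57BL/6N mice, 3 libraries from infant and 3 from young adult animals, with no allele or treatment in either group. The sort took live cells with CD31 and CD34 on their surface and without antigens of leukocytes, lymphatic endothelium and erythroid cells, and neither the labels nor the methods say how many animals a library held. Levels are in RPKM, read counts scaled to transcript length and to the mapped reads of a library, with a rounding step of 0.1, and how many reads each library had is unknown, since the methods give only an average coverage.

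Most G protein-coupled receptors sit in the plasma membrane, bind a ligand outside the cell and switch on a heterotrimeric G protein inside it, which acts on adenylyl cyclases or phospholipases. Adhesion receptors, a class with long extracellular domains that bind matrix and neighbouring cells, make up a good part of the numbered genes, and several are known in vessels. Other numbered genes turned out to encode proteins of the Golgi apparatus or of lysosomes that do not signal as classical receptors. Of the 20 genes, 7 encode adhesion receptors, 7 encode multipass proteins of intracellular membranes, 2 encode receptors listed with those of lipids, metabolites or chemokines (Gpr17, Gpr182), and 1 each a proton-sensing receptor (Gpr4) and a constitutively active one (Gpr21). Gpr19 and Gpr146 stayed as other orphan receptors. All 20 passed the filter on low levels, an RPKM of 1 or more in any library, and all were tested. Gpr64 and Gpr21 passed it through infant libraries only, the group in which they were higher.

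The libraries carried the endothelial transcripts that their label implies, with Pecam1, which encodes CD31, at 309.8 to 512.6 RPKM in infant EC and 573.7 to 657.8 RPKM in EC of young adults. Libraries of both ages also held transcripts of other cells. Epithelial markers summed to 6490 to 11348 RPKM in infant and 1835 to 8370 RPKM in young adult EC. This was above the endothelial sum in every infant library and in young adult replicate 3. Erythroid markers (7 of 7 tested called lower), B cell markers (4 of 4) and general leukocyte markers (4 of 8) were lower in young adults. The summed level of 12 fibroblast markers was 1362, 380.2 and 996.2 RPKM in the order of infant replicates 1 to 3 and 14.4 to 29.3 RPKM in young adult libraries, with 11 of the 12 called lower. The 11 mural markers summed to 242.9, 71.6 and 242.1 RPKM in infant EC and to 12.3 to 16.7 RPKM in EC of young adults, with 10 called lower. The 14 endothelial markers summed to 3945, 5412 and 3734 RPKM in infant EC and to 5864 to 6405 RPKM in EC of young adults, with 2 called higher. By these sums infant replicate 2 held the least fibroblast and mural RNA and the most endothelial and epithelial RNA of its group. Y-linked transcripts were present in all infant libraries (Ddx3y at 16.5 to 21.9 RPKM) and listed at 0 in all young adult libraries, although the methods name female mice. The X-linked transcript Xist was at 7.6 to 8.7 RPKM in infant and 12.5 to 15.6 RPKM in young adult libraries. Each infant library thus held both Y-linked transcripts and Xist, and sex and age cannot be told apart here. In sorted bulk samples a change in the cells captured and a change in RNA per cell cannot be told apart either.

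By level, Gpr116 stood far above the other 19 genes, followed in young adult EC by Gpr182, Gpr146, Gpr108 and Gpr56. Gpr116 ranked 241 among all genes of the table in infant and 135 in young adult EC, and the order refers to RPKM, which is per length. Gpr182 moved from rank 2293 to rank 579 and Gpr146 from rank 2972 to rank 1341. In infant EC Gpr108 at 34.4 ± 1.48 RPKM came after Gpr116, and Gpr182, Gpr107, Gpr146 and Gpr56 followed with values that overlapped between neighbours. At the lower end, Gpr64 ranked 9723, Gpr19 9835, Gpr4 10082 and Gpr21 10868 in infant EC, and in young adult EC Gpr64 was listed at 0 in every library.

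**Figure D1:**
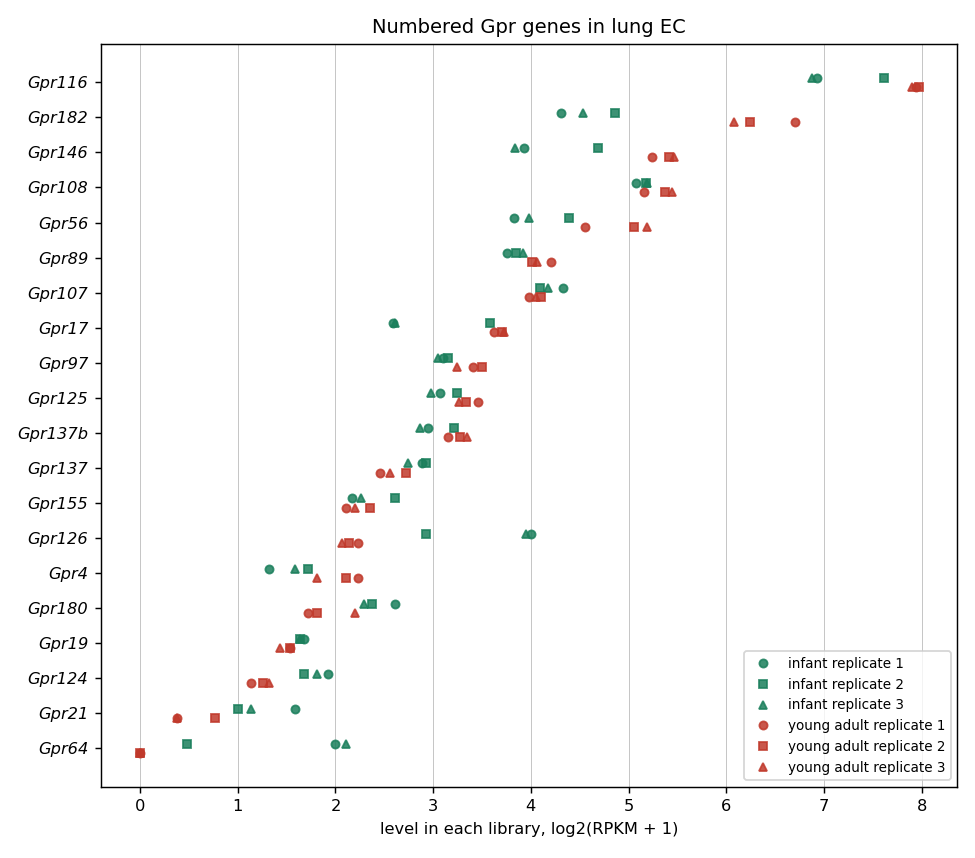
Level of each of the 20 numbered Gpr genes in the 6 libraries, as log2(RPKM + 1) on the horizontal axis, with infant libraries in green and young adult libraries in red and the replicate number given by the symbol. Gpr116 lies far to the right, infant and young adult points of Gpr182 and Gpr146 are well apart, and infant replicate 2 (green square) lies nearer to the young adult points for Gpr126, Gpr17, Gpr116 and Gpr64.

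Between the ages, 3 genes were called higher in young adult EC (Gpr182, Gpr146 and Gpr56) and 2 lower (Gpr126 and Gpr64). A call required a limma Benjamini-Hochberg adjusted p under 0.05 over all genes tested and a change of more than 0.81 in either direction on the log2(RPKM + 1) scale. This is 25.0% of the 20 genes, against 11.4% of the 12458 genes tested (1424 genes), and in the direction of the calls 3 against a background of 3.33% higher and 2 against 8.1% lower. A further 4 genes had an adjusted p under 0.05 below the fold threshold, which makes 9 of 20 against 25.5% of all genes. The median log2 fold change of the 20 genes was 0.22, against -0.07 over all genes tested, with 11 positive and 9 negative values. In 16 of the 20 the infant and young adult values did not overlap, which held for 43.4% of all genes tested. Gpr64 and Gpr21, which passed the filter only through infant libraries, are among these 16 and the 9 above, and Gpr64 is among the calls.

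**Figure D2:**
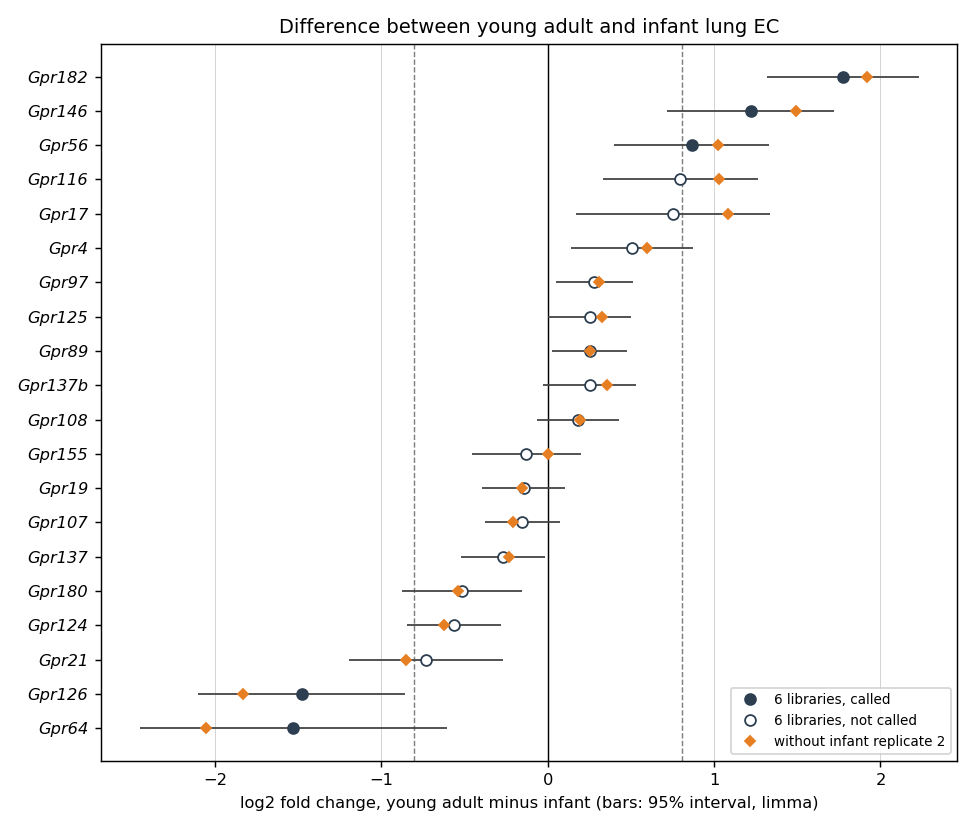
Log2 fold change (young adult minus infant, log2(RPKM + 1) scale) of the 20 numbered Gpr genes with 95% intervals from limma; filled circles are called genes, open circles are not called, orange diamonds are the values without infant replicate 2, and dashed lines mark the fold threshold of 0.81. Gpr182 (1.77) and Gpr146 (1.22) lie beyond the line on the right and Gpr126 (-1.48) and Gpr64 (-1.53) on the left, and without infant replicate 2 Gpr116 and Gpr17 pass the line on the right and Gpr21 the one on the left.

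Gpr182 (NM_007412, chromosome 10, 127749602 to 127751798) encodes an endothelial receptor that takes up chemokines without classical G protein signalling. It measured 18.8, 28.1 and 22.1 RPKM in the order of infant replicates 1 to 3 and 103.1, 74.5 and 66.7 RPKM in the young adult ones. Every young adult library exceeded the highest infant library by a wide margin. The mean rose from 23.0 ± 4.71 to 81.4 ± 19.2 RPKM (SD, n = 3 each), which is 3.54 times the infant level, with a log2 fold change of 1.77 ± 0.20 (SE) at a limma adjusted p of 0.00175. Gpr182 was called in all 20 alternative analyses, with log2 fold changes between 1.59 and 1.92, and it was the 1 gene of the 20 that also passed limma treat, which tests whether a change exceeds the fold threshold.

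Gpr146 (NM_030258, chromosome 5, 139377697 to 139396415) encodes an orphan receptor known from liver cells, where it influences cholesterol in blood. Its levels were 14.2, 24.8 and 13.3 RPKM in infant EC and 36.8, 41.5 and 43.2 RPKM in EC of young adults. The groups did not overlap, and infant replicate 2 stood highest among the infant libraries. The log2 fold change was 1.22 ± 0.22 (SE) at a limma adjusted p of 0.00874, a ratio of means of 2.32, and the call was lost in 1 of 20 alternatives, the treat test. Gpr146 had 3 transcript rows. Both coding rows were called, whereas the non-coding row NR_033147 measured 1.8, 2.6 and 1.8 RPKM in infant EC and 3.0, 3.3 and 3.7 RPKM in EC of young adults, with a log2 fold change of 0.51 that stayed under the fold threshold (limma adjusted p 0.0338 over all rows).

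Gpr56 (NM_018882, chromosome 8, 94974756 to 95014208, now Adgrg1) encodes an adhesion receptor that binds type III collagen and is known from the developing brain. It measured 13.2, 19.9 and 14.8 RPKM in infant EC and 22.4, 32.2 and 35.4 RPKM in EC of young adults. The groups did not overlap, although infant replicate 2 came close to young adult replicate 1. The log2 fold change was 0.86 ± 0.20 (SE) at a limma adjusted p of 0.0204, just over the fold threshold. Its call was lost without infant replicate 1, infant replicate 3, young adult replicate 2 or young adult replicate 3, where the adjusted p lay between 0.0636 and 0.0849. Both transcript rows of Gpr56 gave nearly the same values.

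Gpr126 (NM_001002268, chromosome 10, 14402583 to 14545723, now Adgrg6) encodes an adhesion receptor required for myelination by Schwann cells, with type IV collagen and laminin among its ligands. It measured 15.0, 6.6 and 14.5 RPKM in infant EC and 3.7, 3.4 and 3.2 RPKM in EC of young adults. All infant libraries lay above all young adult libraries, and infant replicate 2 lay between the other infant libraries and the young adult ones. The mean fell from 12.0 ± 4.71 to 3.43 ± 0.252 RPKM, which is 0.285 times the infant level, with a log2 fold change of -1.48 ± 0.27 (SE) at a limma adjusted p of 0.00943. The call held in every fit that left out 1 library, and the value without infant replicate 2 was -1.83.

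Gpr64 (NM_001079847, chromosome X, 160390318 to 160498076, now Adgrg2) encodes an adhesion receptor of the epididymis that is needed for male fertility. It measured 3.0, 0.4 and 3.3 RPKM in the order of infant replicates 1 to 3 and was listed at 0 in the 3 young adult libraries. Infant replicate 2 was close to the young adult value. On the log2(RPKM + 1) scale the fitted difference was -1.53 ± 0.40 (SE) at a limma adjusted p of 0.0288, a size that depends on the pseudocount since young adult libraries were at 0. Leaving out 1 library removed the call in 5 of 6 cases, all but that without infant replicate 2, with adjusted p between 0.0768 and 0.103. Its 4 transcript rows gave almost identical values.

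The summed levels of fibroblast and mural markers moved in the same libraries as Gpr126 and Gpr64. Within the fibroblast list Dcn (7.6, 19.9 and 8.0 RPKM in infant replicates 1 to 3) and Lum (4.1, 14.4 and 4.7 RPKM) went the other way. Both were highest in infant replicate 2, where the other markers of that list were lowest among infant libraries. The fibroblast receptor gene Pdgfra stood at 87.2, 2.6 and 66.8 RPKM in the order of infant replicates 1 to 3 and no higher than 0.6 RPKM in young adults, and the mural marker Pdgfrb 69.4, 17.4 and 57.1 RPKM in infant EC and at most 2.2 RPKM in EC of young adults. Of the 3 neural and glial markers measured, 2 were called lower as well, with S100b at 3.8, 0.6 and 3.3 RPKM and Gap43 at 6.7, 4.6 and 9.2 RPKM in infant EC and both at no more than 1.4 RPKM in young adults. The part of these markers in the fall of both genes was not tested. On the log2 scale infant replicate 2 lay 57.4% of the way from infant replicates 1 and 3 to the young adult mean for Gpr126, 76.3% for Gpr64, 54.2% for Gpr146, 46.9% for Gpr56 and 23.1% for Gpr182. Over all 1424 called genes the median of this position was 41.1%. The endothelial marker sum moved in the direction of the 3 higher genes, with infant replicate 2 likewise nearest to young adult libraries. Of the 14 markers in it 2 were called higher (Tek and Vwf) and 0 lower, and Kdr (log2 fold change -0.01) and Erg (-0.02) did not rise. The 7 markers of general capillary EC summed to 549.4 to 756.4 RPKM in infant and 1023.7 to 1408 RPKM in young adult libraries. Their median log2 fold change was 1.02, with 3 called higher and 0 lower. The 7 markers of aerocyte capillary EC had a median of -0.35, with 0 called in either direction. The part of these markers in the rises of the 3 genes was not tested.

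Promoters are shown to compare the sequence before the start of 4 of the 5 called genes, all but Gpr182, with that of Gpr116, the most abundant one. Of the 20 genes 15 had promoter entries in the RefSeq table used here (GRCm38.p6, the build of mm10), and Gpr182, Gpr17, Gpr21, Gpr124 and Gpr137b had none. The 250 bases before the RefSeq start nearest to the start of the kept transcript were read 5′ to 3′ on the strand of the gene, namely chr5:139380389-139380638 (Gpr146, plus strand), chr8:94984149-94984398 (Gpr56, plus), chr17:43389216-43389465 (Gpr116, plus), chr10:14545037-14545286 (Gpr126, minus) and chrX:160390440-160390689 (Gpr64, plus). Capitals mark CACCC (the core of Krüppel-like factor sites), TGACTCA (AP-1), CGGAA (a core of ETS sites) or TGTTTAC (forkhead), each also as its reverse complement.
Gpr146: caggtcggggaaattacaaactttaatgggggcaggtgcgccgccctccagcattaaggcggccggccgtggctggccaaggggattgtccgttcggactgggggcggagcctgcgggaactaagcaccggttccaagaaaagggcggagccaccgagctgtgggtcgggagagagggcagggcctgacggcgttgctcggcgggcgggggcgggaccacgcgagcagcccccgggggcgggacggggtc
Gpr56: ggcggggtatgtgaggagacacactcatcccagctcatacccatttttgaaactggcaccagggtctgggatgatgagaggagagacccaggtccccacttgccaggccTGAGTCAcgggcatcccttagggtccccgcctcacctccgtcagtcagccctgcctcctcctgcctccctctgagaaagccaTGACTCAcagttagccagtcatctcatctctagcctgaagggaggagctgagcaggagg
Gpr116: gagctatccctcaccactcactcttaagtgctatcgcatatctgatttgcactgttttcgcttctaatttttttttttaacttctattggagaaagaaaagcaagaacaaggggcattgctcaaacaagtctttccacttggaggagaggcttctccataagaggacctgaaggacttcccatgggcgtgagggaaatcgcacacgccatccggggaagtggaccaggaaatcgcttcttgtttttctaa
Gpr126: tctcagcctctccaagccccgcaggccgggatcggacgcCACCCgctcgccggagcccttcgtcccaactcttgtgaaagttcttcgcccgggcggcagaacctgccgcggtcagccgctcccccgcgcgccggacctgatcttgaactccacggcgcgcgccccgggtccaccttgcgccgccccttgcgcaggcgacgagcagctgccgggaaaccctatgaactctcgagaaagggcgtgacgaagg
Gpr64: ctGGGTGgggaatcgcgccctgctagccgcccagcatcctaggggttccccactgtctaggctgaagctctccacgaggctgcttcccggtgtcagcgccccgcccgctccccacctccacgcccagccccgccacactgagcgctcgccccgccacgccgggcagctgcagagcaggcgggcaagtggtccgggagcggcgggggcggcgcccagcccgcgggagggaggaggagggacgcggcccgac

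The window of Gpr56 held the AP-1 letters, which occur in 4.46% of 32851 windows of this length in the promoter table, and those of Gpr126 and Gpr64 held CACCC, which 52.0% of all windows hold. ETS letters (25.2% of windows) and forkhead letters (3.17%) were in none of the 5 windows shown. CpG content differed among them. The genes that fell had 32 (Gpr126) and 26 (Gpr64) CpG dinucleotides with 69.6% and 75.6% GC, and Gpr146 had 25 with 70.0% GC, whereas Gpr56 had 4 with 59.2% GC and Gpr116 7 with 44.8% GC. The median over all windows was 6 CpG and 52.4% GC. A second RefSeq start of Gpr56, with 4 CpG, and 2 others of Gpr146, with 5 and 3 CpG, were CpG-poor as well. These are descriptions of single windows, and letters that match a motif are not evidence of binding.

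Among the other adhesion receptors, Gpr116 (NM_001081178, chromosome 17, 43360329 to 43459557, now Adgrf5) is known for setting the surfactant pool of the alveoli and is also made by EC. It measured 120.8, 194.3 and 116.4 RPKM in infant EC and 243.8, 249 and 237.9 RPKM in EC of young adults. Young adult libraries lay close together and above all infant libraries, and infant replicate 2 stood between the groups. The log2 fold change of 0.80 ± 0.20 (SE) had a limma adjusted p of 0.0261, with a ratio of 1.69 that stayed under the fold threshold. Gpr116 was called without infant replicate 2 (1.03, adjusted p 0.000236), with array weights and with upper-quartile scaling. In each of the 5 other fits without 1 library its adjusted p was over 0.05, between 0.0687 and 0.0952.

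Gpr124 (NM_054044, chromosome 8, 27085520 to 27123436, now Adgra2) encodes the co-receptor through which Wnt7a and Wnt7b guide vessels into the brain. It was low in lung EC, at 2.8, 2.2 and 2.5 RPKM in infant EC and 1.2, 1.4 and 1.5 RPKM in EC of young adults. The groups did not overlap, with a log2 fold change of -0.56 ± 0.12 (SE) and a limma adjusted p of 0.0168 under the fold threshold. On a pseudocount of 0.1 it reached -0.82 and was called. Leaving out 1 library raised its adjusted p over 0.05 in 4 of 6 cases, at most to 0.0643.

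Gpr125 (NM_133911, now Adgra3), the closest relative of Gpr124, measured 7.4, 8.5 and 6.9 RPKM in infant EC and 10.0, 9.1 and 8.6 RPKM in EC of young adults. Its log2 fold change of 0.25 (95% interval 0.003 to 0.50) had a limma adjusted p of 0.12, so the pair had point estimates of opposite sign, a difference between the genes that was not tested. Gpr97 (NM_173036, now Adgrg3), known from granulocytes, measured 7.6, 7.9 and 7.3 RPKM in infant EC and 9.6, 10.3 and 8.5 RPKM in EC of young adults. Young adult values were all above infant values, by a log2 fold change of 0.28 (0.05 to 0.51) at a limma adjusted p of 0.0752. The 6 neutrophil markers in the table summed to 5.8, 14.5 and 61.4 RPKM in infant replicates 1 to 3. In young adult EC they summed to 0.2 to 2.6 RPKM, with S100a8 and Ngp called lower. The part of such cells in the level of Gpr97 was not tested. Gpr97 starts 2904 bases downstream of the end of Gpr56 on chromosome 8, on the same strand, the 1 pair of neighbours among the 20 genes.

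All 7 adhesion receptors had groups that did not overlap, against 43.4% of all genes tested, with Gpr64 having passed the filter only through infant libraries. Their calls were 1 higher and 2 lower, against 3.33% and 8.1% of all genes, with 4 positive and 3 negative log2 fold changes and a median of 0.25.

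Gpr4 (NM_175668, chromosome 7, 19212538 to 19224176) encodes a receptor that senses extracellular acid and is known from EC. It measured 1.5, 2.3 and 2.0 RPKM in infant EC and 3.7, 3.3 and 2.5 RPKM in EC of young adults. The groups did not overlap, the log2 fold change was 0.50 ± 0.16 (SE), and the limma adjusted p of 0.0513 just missed the threshold. Without infant replicate 2 that p was 0.0258 and without young adult replicate 3 it was 0.0461, while the fold threshold was not reached in any alternative. Gpr4 was the proton-sensing receptor among the 20 genes.

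A total of 3 genes lie inside another gene, and for these the level of the surrounding gene was set beside their own after the values had been seen. Gpr17 (NM_001025381, chromosome 18, 31942999 to 31949890), a receptor known from oligodendrocyte precursors, lies on the opposite strand within Lims2, which encodes an adaptor protein of focal adhesions. Gpr17 measured 5.0, 11 and 5.1 RPKM in infant EC and 11.3, 12.0 and 12.2 RPKM in EC of young adults. Lims2 measured 89.5, 200 and 97.4 RPKM in infant EC and 199.1, 229.1 and 237.3 RPKM in EC of young adults. The level of Gpr17 was 5.14% to 5.68% of that of Lims2 in each of the 6 libraries, so both followed the same pattern from library to library. Infant replicate 2 of Lims2 lay within the young adult range.

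The log2 fold change of Gpr17 was 0.75 ± 0.25 (SE, limma adjusted p 0.0624) and that of Lims2 0.87 ± 0.29 (adjusted p 0.0602). GENCODE M21 gives 188 bases of exon shared by both genes, 3.62% of the exon bases of Gpr17. Counting is not stated to have used strand, and reads from a gene and its opposite-strand partner can then not be told apart, so the level of Gpr17 in these cells is uncertain. Without infant replicate 2 Gpr17 was called (1.08, adjusted p 0.000161). The glial and neural markers of the list, 3 of 7 in the table, summed to 5.7 to 13.8 RPKM in infant EC and 1.8 to 2.4 RPKM in EC of young adults. The part of such cells in the level of Gpr17 was not tested.

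Gpr21 (NM_177383, chromosome 2, 37516626 to 37519281), a constitutively active orphan receptor gene, lies on the same strand within Rabgap1, which encodes a GTPase-activating protein. Gpr21 measured 2.0, 1.0 and 1.2 RPKM in infant EC and 0.3, 0.7 and 0.3 RPKM in EC of young adults, and the groups did not overlap. Its log2 fold change was -0.73 ± 0.20 (SE, limma adjusted p 0.0339), under the fold threshold. It passed both thresholds without infant replicate 2 (-0.85) and at a pseudocount of 0.1 (-1.52), and without young adult replicate 2 it passed the fold threshold alone (-0.86). Without any 1 of the other 5 libraries its adjusted p lay between 0.0591 and 0.111. Rabgap1 was at 17.2 to 21.1 RPKM in infant EC and 14.6 to 16 RPKM in EC of young adults. The level of Gpr21 was 5.35% to 9.48% of that of Rabgap1 in infant and 1.88% to 4.40% in young adult libraries, so here the ratio was not constant. Gpr21 also lies within Strbp on the opposite strand, with which it shares no exon base. Strbp was at 2.5, 1.5 and 2.1 RPKM in infant replicates and at 1.3, 1.5 and 1.0 RPKM in young adult ones (log2 fold change -0.41, limma adjusted p 0.0998). Within each age Strbp and Gpr21 had the same order of extremes, with infant replicate 2 lowest of its group and young adult replicate 2 highest. Gpr146 lies on the opposite strand within 3110082I17Rik, shares no exon base with it, and had 443% to 800% of its RPKM in infant and 965% to 1082% in young adult libraries.

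**Figure D3:**
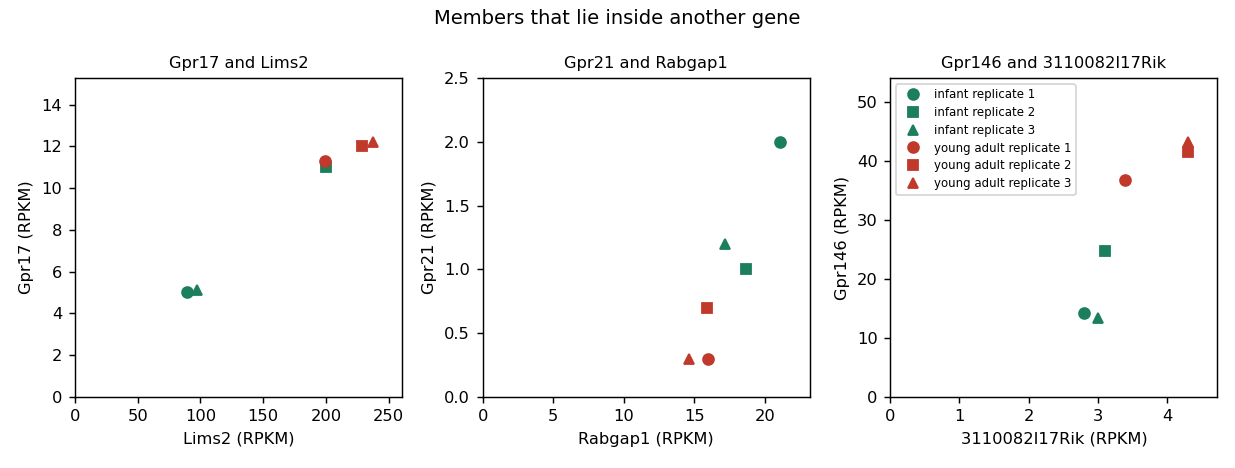
RPKM of Gpr17, Gpr21 and Gpr146 on the vertical axes against RPKM of the gene that surrounds each of them on the horizontal axes, 1 point per library (infant green, young adult red, replicate by symbol). Gpr17 and Lims2 fall on a line through the origin, at 5.14% to 5.68% in every library, whereas the share of Gpr21 in Rabgap1 is lower in all young adult libraries than in any infant library.

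The 7 multipass proteins of intracellular membranes gave no calls, against 11.4% of all genes tested. In 3 of them the groups did not overlap, a share near the 43.4% of all genes. Gpr108 (NM_030084, chromosome 17), a Golgi protein, measured 32.7, 35.1 and 35.4 RPKM in infant EC and 34.7, 40.5 and 42.5 RPKM in EC of young adults (log2 fold change 0.18, 95% interval -0.07 to 0.43). Its relative Gpr107 (NM_178760), which acts in membrane traffic between the Golgi and endosomes, measured 19.1, 16.1 and 17.1 RPKM in infant EC and 14.8, 16.2 and 15.6 RPKM in EC of young adults (-0.15, -0.38 to 0.07). For both the groups overlapped.

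Gpr89 (NM_026229), a Golgi anion channel that regulates pH, measured 12.5, 13.4 and 14.1 RPKM in infant EC and 17.4, 15.1 and 15.7 RPKM in EC of young adults. The groups were apart by a small margin (0.25, 95% interval 0.03 to 0.47, limma adjusted p 0.0926). Of its exon bases, 24.8% are shared with Pdzk1 on the opposite strand, which measured at most 1.7 RPKM in any library. A further 3.08% are shared with Gja5, also on the opposite strand, which was called lower (-1.08).

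The lysosomal proteins had small differences. Gpr137 (NM_001177362) measured 6.4, 6.6 and 5.7 RPKM in infant EC and 4.5, 5.6 and 4.9 RPKM in EC of young adults (-0.27, 95% interval -0.52 to -0.02, limma adjusted p 0.103), with 15.4% of its exon bases shared with Bad on the opposite strand. Gpr137b (NM_031999) measured 6.7, 8.3 and 6.3 RPKM in infant EC and 7.9, 8.7 and 9.2 RPKM in EC of young adults (0.25, -0.03 to 0.53). Its near-identical copy Gpr137b-ps can share reads with it and measured 10.1 to 12.0 RPKM in infant EC and 11.5 to 13.4 RPKM in EC of young adults, so how reads were split between the pair is uncertain. Gpr155 (NM_001190297), a lysosomal cholesterol sensor, measured 3.5, 5.1 and 3.8 RPKM in infant EC and 3.3, 4.1 and 3.6 RPKM in EC of young adults. The values of Gpr155 overlapped, and its log2 fold change of -0.13 (-0.46 to 0.20) changed sign under quantile normalization and without infant replicate 2.

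Gpr180 (NM_021434, chromosome 14), a protein linked to the growth of vascular smooth muscle, was the 1 gene of this group with an adjusted p under 0.05. It measured 5.1, 4.2 and 3.9 RPKM in infant EC and 2.3, 2.5 and 3.6 RPKM in EC of young adults. Young adult replicate 3 lay close to infant replicate 3, and the log2 fold change was -0.52 ± 0.16 (SE, limma adjusted p 0.0458). Leaving out 1 library raised that p over 0.05 in 4 of 6 cases, at most to 0.144.

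Gpr19 (NM_001167695, chromosome 6), an orphan receptor gene with 8 transcript rows, measured 2.2, 2.1 and 2.1 RPKM in infant EC and 1.9, 1.9 and 1.7 RPKM in EC of young adults. All of its rows lay within a mean of 1.65 to 1.98 RPKM and a log2 fold change of -0.17 to -0.11, none called. The sign of Gpr19 turned under quantile normalization. Of its exon bases 9.25% are shared with an antisense transcript. In the other genes with more than 1 row the choice of transcript changed no call except for the non-coding row of Gpr146.

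Other genes of G protein signalling were examined as 6 lists, with 13 of 60 tested genes called (21.7%, against 11.4% of all genes tested), 5 higher and 8 lower. Among adhesion receptors with other symbols, Eltd1, an endothelial receptor now called Adgrl4, rose by 2.06 ± 0.30 (SE) on the log2 scale, from 38.9, 77.4 and 38.3 RPKM in infant to 243.9, 233.7 and 153.1 RPKM in young adult libraries (limma adjusted p 0.00434). Cd97 (now Adgre5), found on leukocytes and other cells, rose by 1.01 ± 0.16 (adjusted p 0.00531). These were 2 of 7 genes on that list (28.6%, against 11.4% of all genes tested), and no gene of it was called lower.

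Of 8 adenylyl cyclases, which make cyclic AMP, Adcy4 rose by 1.14 ± 0.17 (SE, limma adjusted p 0.00456), while Adcy7 (-2.26) and Adcy2 (-1.16) fell. Adcy4 measured 51.7, 73.1 and 47.1 RPKM in infant EC and 119.7, 135.7 and 121.9 RPKM in EC of young adults. Adcy7 measured 15.1, 2.8 and 13.0 RPKM in infant EC and at most 1.5 RPKM in EC of young adults, with its low infant value in replicate 2. Calls were 37.5% of the list, against 11.4% of all genes tested, and the median over the list was -0.62. Adcy2, Adcy3, Adcy5 and Adcy8 passed the filter on low levels only through infant libraries, the group in which they were higher. Their negative sign therefore adds little to the count and the median.

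RGS proteins shorten the active state of G protein alpha subunits. Of 15 tested, 5 were called lower and 1 higher, against 8.1% and 3.33% of all genes tested, with a median of -0.59 against -0.07. Rgs2 fell by 2.70 on the log2 scale (46.7, 13.4 and 45.6 RPKM in infant EC and 3.5, 4.0 and 4.2 RPKM in EC of young adults), and Rgs16 fell by 2.11, whereas Rgs9 rose by 0.89 from 6.53 ± 1.76 to 12.8 ± 2.27 RPKM. Infant replicate 2 was the lowest infant library for Rgs2 and Rgs16. The other RGS genes called lower had their lowest infant value in replicate 1 or 3. Rgs4 and Rgs16, both called lower, and Rgs7bp passed the filter on low levels only through infant libraries, the group in which they were higher. Summed fibroblast and mural markers were lowest in infant replicate 2 of the infant libraries, and their part was not tested.

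Of 11 alpha subunits 1 was called (9.09%, against 11.4% of all genes tested). This was Gnai1, which fell by 0.91 from 2.93 ± 0.462 to 1.1 ± 0.265 RPKM, and the median of the list was 0.04. Of 12 beta and gamma subunits 1 was called (8.33%), so both shares were near that of all genes. This was Gngt2, which rose by 1.34 from 45.8, 115.9 and 68.1 RPKM in infant to 180.8, 169.6 and 197.0 RPKM in young adult libraries. The 7 receptor kinases and arrestins, which switch receptors off, had no call and a median of -0.39. An adjusted p under 0.05 was found for 2 of them, near the 25.5% of all genes tested. Grk4 of this list and the gamma subunit gene Gng8 passed the filter on low levels only through infant libraries.

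**Figure D4:**
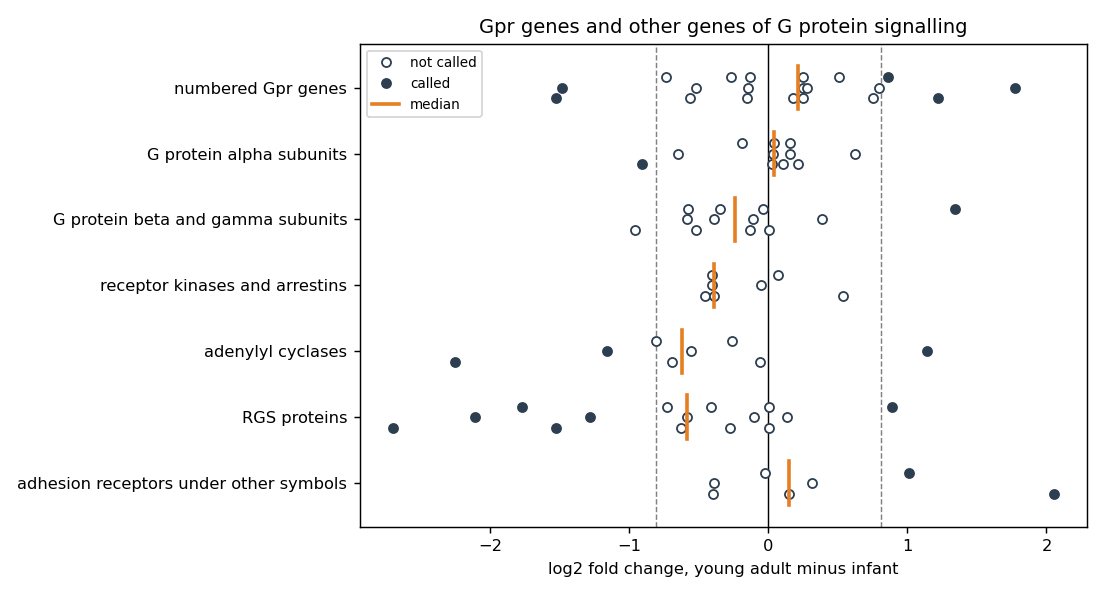
Log2 fold change (young adult minus infant) of each tested gene, 1 point per gene, for the numbered Gpr genes and for 6 lists of other G protein signalling genes; filled points are called, orange bars are medians, and dashed lines mark the fold threshold of 0.81. RGS proteins (median -0.59) and adenylyl cyclases (-0.62) lie mostly left of 0, while the numbered Gpr genes (0.22) lie on both sides. Some genes of the RGS and cyclase lists, like Gpr64 and Gpr21, passed the filter on low levels only through infant libraries.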

How the data were processed

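The authors aligned paired-end reads of amplified cDNA (SMARTer Ultra Low kit) to mm10 with STAR, annotated them with RefSeq and used DESeq2 for their own test, per the labels and the methods. The deposited values were RPKM computed by the authors, 1 row per transcript, rounded to 1 decimal. Tool versions and the program that gave RPKM were not given in the sources used here. The table held 0 further columns of sample values. Since RPKM scale with the mapped reads of a library, abundant transcripts (globin genes took 3.41% to 23.5% of the RPKM in infant and 0.307% to 0.487% in young adult libraries) lower all others.

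For the 12623 genes the row with the highest mean was kept, and the 24 rows whose symbol a spreadsheet had turned into a date were given their gene symbol again. Log2(RPKM + 1) of the 12458 genes that reached an RPKM of 1 in any library was fitted with limma 3.58.1 in R 4.3.3 (lmFit, eBayes with trend, age as the only term), with Benjamini-Hochberg adjustment over all of them. The count test of the study could not be used on RPKM. The pseudocount understates changes of low genes. The fit was tested on simulated data. Group and replicate number came from library titles, and the series text calls replicates independent.

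Members given in every library are the called ones, those with a mean RPKM of 5 or more, the 3 uncalled ones with the lowest adjusted p, and those with several transcript rows of which 1 has a mean RPKM of 1 or more. Gpr4 and Gpr180 fall outside this rule and were added after their values were seen. Of each signalling list up to 2 called genes per direction, those with the largest change, are named. The genes, lists and tests were chosen with earlier results of these data known. Overlaps with other genes come from GENCODE M21 and positions from RefSeq GRCm38.p6.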

Additional observations from a re-analysis of the deposited data

How the results depend on the processing

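Results were recomputed under 20 alternatives, of which 6 left out 1 library each. The 3 genes called higher were 5 with array weights and 1 under the treat test, and between 2 and 5 without 1 library. The 2 called lower were 4 with a pseudocount of 0.1, 1 with a pseudocount of 5 and with quantile normalization, 0 under treat, and between 1 and 3 without 1 library, the highest values in both directions being those without infant replicate 2. The 1424 called genes of the whole table were 1776 with array weights, 1957 and 578 with pseudocounts of 0.1 and 5, 1142 with quantile normalization, 176 under treat and between 846 and 1874 without 1 library. The median log2 fold change of the 20 genes moved from 0.22 to 0.11 when libraries were rescaled without globin genes, where the median of all genes moved from -0.07 to -0.16, and quantile normalization moved the latter to 0.04 and the former to 0.20. Without 1 library it lay between 0.16 and 0.23. The 13 called genes of the signalling lists were 6 with a pseudocount of 5 and 0 under treat, and between 7 and 18 without 1 library (7 without infant replicate 3, young adult replicate 1 or young adult replicate 2). Signs turned for Gpr155 (0.058) and Gpr19 (0.13) under quantile normalization, and Gpr155 ranged from -0.22 to 0.0023 without 1 library, with the positive value without infant replicate 2. Gpr56 also lost its call with a pseudocount of 5 and without globin genes, and Gpr64 with a pseudocount of 5 and under quantile normalization. The cause was not tested.

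With the replicate number as a block, 3 genes were called higher and 2 lower, as without it, and 11 genes of the signalling lists were called. Deviations of same-numbered libraries correlated at 0.03, -0.11 and -0.02, so they shared little deviation in expression. Whether same-numbered libraries were prepared together cannot be told from these values. Depth per library is unknown, and values under 1 RPKM rest on few rounding steps.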
